A study of Danio rerio with 12 samples.

Results

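The genes described here encode the proteasome, the protease that degrades ubiquitin-tagged proteins, together with its activators and assembly factors. They were all gene IDs whose symbol starts with psma, psmb, psmc, psmd or psme followed by a digit, in any letter case. This rule took 55 of the 32520 gene IDs in the count tables. Of these, 53 encode subunits, activators or assembly chaperones, and the other 2, psmc3ip and psme3ip1, encode proteins named as partners of psmc3 and psme3. The rule used names only and no measured value.

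The libraries were poly-A selected, stranded RNA-seq of muscle dissected from adult AB zebrafish (Danio rerio) aged 20 months. Muscles that turn the eyeball (extraocular muscle, EOM) and muscle of the trunk were each taken from wild-type fish (WT) and from fish mutant for both desmin genes (desma-/-;desmb-/-, here "mutant"). Desmin is the intermediate filament protein that links myofibrils at the Z-disc, and the study asked why EOM withstands muscular dystrophy. The groups were WT EOM, mutant EOM, WT trunk and mutant trunk, with 3 libraries in each. The double mutant was made in the same AB line that gave the WT fish, whereas the series' design text speaks of a knock-down. The labels name myofibres as the cell type, but the RNA came from whole dissected muscle with no sort. The labels do not say whether a library is 1 fish or a pool, or whether EOM and trunk libraries share fish, so p-values measure the spread between these libraries, which may be technical.

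The proteasome core is a barrel of stacked rings. The outer alpha rings, made of psma products, gate the barrel, and the inner beta rings, made of psmb products, hold the catalytic sites. A regulatory particle of ATPases (psmc) and non-ATPases (psmd) caps the barrel, recognises ubiquitin chains, removes them and unfolds the substrate. In leukocytes, and in other cells after interferon signalling, the catalytic subunits psmb5, psmb6 and psmb7 can be replaced by psmb8, psmb9 and psmb10, which gives the immunoproteasome that makes peptides for antigen presentation. The activator PA28, a ring of psme1 and psme2 products, is induced with them and opens the barrel without ATP. In muscle the proteasome degrades myofibrillar proteins and is known for its part in atrophy.

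By role, the members were 10 alpha ring genes, 7 constitutive beta genes, 7 immune or MHC-linked beta genes, 7 ATPases, 14 non-ATPases, 3 assembly chaperones named psmd5, psmd9 and psmd10, the PA28 genes psme1 and psme2, 3 other activator genes (psme3 and 2 IDs named PSME4) and the 2 partner genes. The MHC-linked beta genes psmb12 and psmb13a are known in fish, where they lie beside psmb8 and psmb9 genes. In the RefSeq order of genes (assembly GRCz12tu), psmb13a, psmb8a, psmb12 and psmb9a were adjacent. The span of psmb13a overlapped those of psmb8a, psmb12 and psmb9a, and the span of psmb8a overlapped those of psmb12 and psmb9a. Reads that overlapped several genes on the counted strand were set aside, so the split of reads among these 4 genes is uncertain. Another 8 IDs shared a symbol in pairs (PSMA6, PSMD11, PSMD2 and PSME4) and are named by ID. The split of reads between such near copies is uncertain too.

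Sense reads in genes totalled 46.1 to 74.1 M (megareads) per library, of which the members held 0.169% to 0.271%. Levels are given as CPM (read counts relative to library sizes scaled by edgeR's TMM factors over the 12 libraries) and are compared between libraries and not between genes. The mutated gene checked the labels: ENSDARG00000058656, 1 of 2 IDs named desmin, stood at 559 to 685 CPM in the 6 WT libraries and at 17.7 to 49.3 CPM in the 6 mutant libraries, with no overlap. The other desmin ID lay between 0.0597 and 0.174 CPM in all libraries, too low to check a label. In the RefSeq order, none of the 50 genes on either side of desma or desmb was a member. All 13 skeletal muscle markers had reads in every group, and their summed level was 30402 to 41393 CPM in EOM and 123614 to 169287 CPM in trunk. Singly they went both ways, with 4 called higher and 9 lower in EOM than in trunk in either genotype. Photoreceptor markers reached 51.5 to 447 CPM in EOM and 3.63 to 92.2 CPM in trunk, and their part in the results was not tested.

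One library stood apart most in the constitutive subunits. WT EOM replicate 2 had the highest level of its group in 36 of the 37 constitutive subunit genes (the alpha ring without psma6l, the beta ring and the regulatory particle), and the median gene was 1.51 times the mean of the other two libraries. Over the 13815 genes with a mean of at least 1 CPM, it was the highest of its group in 43.7%. Counts and medians of the constitutive subunits that rest on WT EOM are therefore given with and without this library. Other results on WT EOM, such as the ratios of reads, mostly include it. In trunk, mutant replicate 1 had the highest level of its group in 33 of the 37. Mutant EOM replicate 3 had the lowest level of its group in 35 of the 37. Its median gene was 0.79 times the mean of the other libraries of its group. WT trunk replicate 1 was the lowest of its group in 31 of the 37, with a median ratio of 0.85.

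In mutant trunk muscle the immune beta subunits rose together: psmb8a, psmb9a, psmb10 and psmb12 were 3.95-fold to 5.67-fold above WT, and psmb13a, 4.07-fold above WT, just missed the test. Against WT trunk, 9 of the 52 members tested passed an adjusted p of 0.05 in edgeR's quasi-likelihood test with Benjamini-Hochberg adjustment over all genes, and all 9 were higher. That is 17.3% of the members, beside 8.4% of all 17342 genes tested (higher 4.76%, lower 3.63%). Of the 9, 6 were immune beta or PA28 genes (psmb8a, psmb9a, psmb10, psmb12, psme1 and psme2), and the others were psma6l, psmb2 and psmd9. In mutant EOM, 2 of 53 members passed, psmb8a and psme2, both higher, and both also passed in trunk. Their share of 3.77% was near the 3.56% of all 18980 genes called there (higher 2.15%, lower 1.4%).

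The gene psmb8a encodes the immune counterpart of psmb5, the chymotrypsin-like subunit. Its level in replicates 1, 2 and 3 was 3.09, 3.89 and 2.87 CPM in WT trunk and 25.3, 11.6 and 12.9 CPM in mutant trunk. In EOM it was 6.35, 5.64 and 5.98 CPM in WT and 11.7, 12.5 and 11.6 CPM in mutants. Mutants and WT did not overlap in either tissue, and mutant trunk replicate 1 was the highest of the 12 libraries. The log2 fold change was 2.36 ± 0.31 (SE) in trunk (edgeR, Benjamini-Hochberg adjusted p = 0.0044) and 1.00 ± 0.11 in EOM (adjusted p = 0.00513), that is 5.14-fold and 2.00-fold. It passed in both tissues without any 1 library and in the 8 other fits tried.

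The gene psmb9a, the counterpart of the caspase-like subunit psmb6, stood at 2.86, 3.97 and 3.09 CPM in WT trunk and at 29.4, 16.1 and 9.77 CPM in mutant trunk. In EOM it was 3.98, 4.09 and 5.43 CPM in WT and 6.77, 7.33 and 6.51 CPM in mutants. Both tissues showed no overlap, and the 3 mutant trunk libraries spanned a 3-fold range. Its log2 fold change in trunk was 2.50 ± 0.41 (edgeR adjusted p = 0.0163). In EOM the change of 0.61 ± 0.16 missed the threshold (edgeR adjusted p = 0.0805). The trunk call was lost without WT trunk replicate 1, 2 or 3, with adjusted p of 0.0676, 0.0636 and 0.104 in edgeR, and with no filter on low counts (edgeR adjusted p = 0.0629). In EOM, psmb9a passed without WT replicate 3 (edgeR adjusted p = 0.041).

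The third catalytic counterpart, psmb10, replaces the trypsin-like subunit psmb7. WT trunk libraries held 3.13, 2.64 and 3.37 CPM, and mutant trunk libraries 13.8, 12.4 and 9.45 CPM. WT EOM held 5.56, 5.82 and 5.18 CPM and mutant EOM 11.5, 8.95 and 7.45 CPM. Every mutant library was above every WT library of its tissue, and of the 3 this gene had the mutant trunk libraries closest together. The log2 fold change was 1.98 ± 0.19 in trunk (edgeR adjusted p = 0.000384), passing without any 1 library, and 0.75 ± 0.17 in EOM (edgeR adjusted p = 0.0505), where no fit without 1 library called it and 5 of the 8 other fits did.

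The fish genes beside psmb8a had fold changes in the same direction. In trunk, psmb12 was 2.28, 1.91 and 1.41 CPM in WT and 12.6, 5.83 and 5.33 CPM in mutants. In EOM it was 3.02, 3.50 and 3.69 CPM in WT and 4.81, 6.22 and 4.79 CPM in mutants. Neither tissue overlapped. Its log2 fold change was 2.11 ± 0.36 in trunk (edgeR adjusted p = 0.0127) and 0.64 ± 0.17 in EOM (edgeR adjusted p = 0.0838). The trunk adjusted p became 0.0572 without WT trunk replicate 2 and 0.0557 without replicate 3 (edgeR).

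For psmb13a the libraries of WT trunk stood at 4.31, 4.74 and 2.79 CPM and those of mutant trunk at 27.1, 11.6 and 8.70 CPM. WT EOM stood at 5.21, 4.07 and 5.22 CPM and mutant EOM at 7.34, 7.86 and 7.42 CPM. The groups did not overlap, yet the gene passed in neither tissue, with log2 fold changes of 2.03 ± 0.48 in trunk (edgeR adjusted p = 0.0533) and 0.65 ± 0.14 in EOM (edgeR adjusted p = 0.0508). Mutant trunk replicate 1 was over 2 times each of its group's other libraries. Without it the change was smaller, 1.38, and passed (edgeR adjusted p = 0.0168), and without mutant trunk replicate 3 it was 2.32 and passed (edgeR adjusted p = 0.021). The remaining beta genes of this class, PSMB11 and psmb11b, carry the name of the thymus-specific subunit of mammals. PSMB11 had 0 reads in all libraries and psmb11b 1 read in each of 2, so neither was tested.

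Without mutant trunk replicate 1, the log2 fold changes in trunk were 1.92 for psmb8a, 1.98 for psmb9a, 1.85 for psmb10 and 1.60 for psmb12, and all 4 passed (edgeR adjusted p from 0.00167 to 0.00894).

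Both PA28 genes rose in mutant trunk, and psme2 in mutant EOM. The level of psme1 was 25.4, 24.0 and 23.3 CPM in WT trunk and 65.0, 53.4 and 52.0 CPM in mutant trunk. In EOM it was 25.4, 29.4 and 24.7 CPM in WT and 42.7, 44.1 and 32.8 CPM in mutants. The mutant libraries were the higher ones in each tissue, without overlap, and the WT levels of the tissues lay close together. The log2 fold change in trunk was 1.25 ± 0.14 (edgeR adjusted p = 0.000719) and held without any 1 library. The EOM change was 0.59 ± 0.14 (edgeR adjusted p = 0.0599), passing without WT EOM replicate 2 (0.67, edgeR adjusted p = 0.0422).

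Its partner psme2 stood at 55.1, 55.9 and 42.6 CPM in WT trunk and 105.3, 94.4 and 82.5 CPM in mutant trunk. WT EOM held 30.1, 33.2 and 31.8 CPM and mutant EOM 44.8, 46.8 and 43.6 CPM. Again no mutant library reached down to a WT library of its tissue. The log2 fold change was 0.90 ± 0.15 in trunk (edgeR adjusted p = 0.00668), called without any 1 library, and 0.51 ± 0.10 in EOM (edgeR adjusted p = 0.0342). The EOM call was lost without WT EOM replicate 1 (edgeR adjusted p = 0.139) or 3 (0.0707), or without mutant EOM replicate 1 (0.138), 2 (0.156) or 3 (0.0886).

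As a class, 7 of the 9 immune beta and PA28 genes passed the filter on low counts. Each of the 7 was higher in mutants without overlap in both tissues. Among the 7, psmb13a, psmb8a, psmb12 and psmb9a are adjacent with an uncertain split of reads, so they are not separate observations. Among all members 9 of 53 did not overlap in EOM (8 higher) and 20 of 52 in trunk (19 higher). Over all tested genes the share without overlap was 24.9% in EOM (higher 13.3%) and 30.3% in trunk (higher 15%). The median log2 fold change of the 7 was 0.64 in EOM and 2.03 in trunk, beside -0.02 and -0.01 over all genes. With unscaled library totals the all-gene median moved by 0.10 in EOM and -0.04 in trunk, and the share of calls that were higher went from 60.6% to 73.7% in EOM, where 4 members were then called, all higher. The 5 immune beta genes summed to 24.1, 23.1 and 25.5 CPM in WT EOM and 42.1, 42.8 and 37.8 CPM in mutant EOM. In trunk they summed to 15.7, 17.1 and 13.5 CPM in WT and 108.2, 57.5 and 46.2 CPM in mutants. On this TMM scale the trunk held the lowest sums in WT and the highest in mutants, where the spread between libraries was also widest. The ranking in mutants depended on the scaling. Of the 5 genes, 1 passed between mutant tissues, psmb9a, and psmb8a turned from -0.47 to 0.27 (EOM over trunk) with unscaled library totals.

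**Figure D1:**
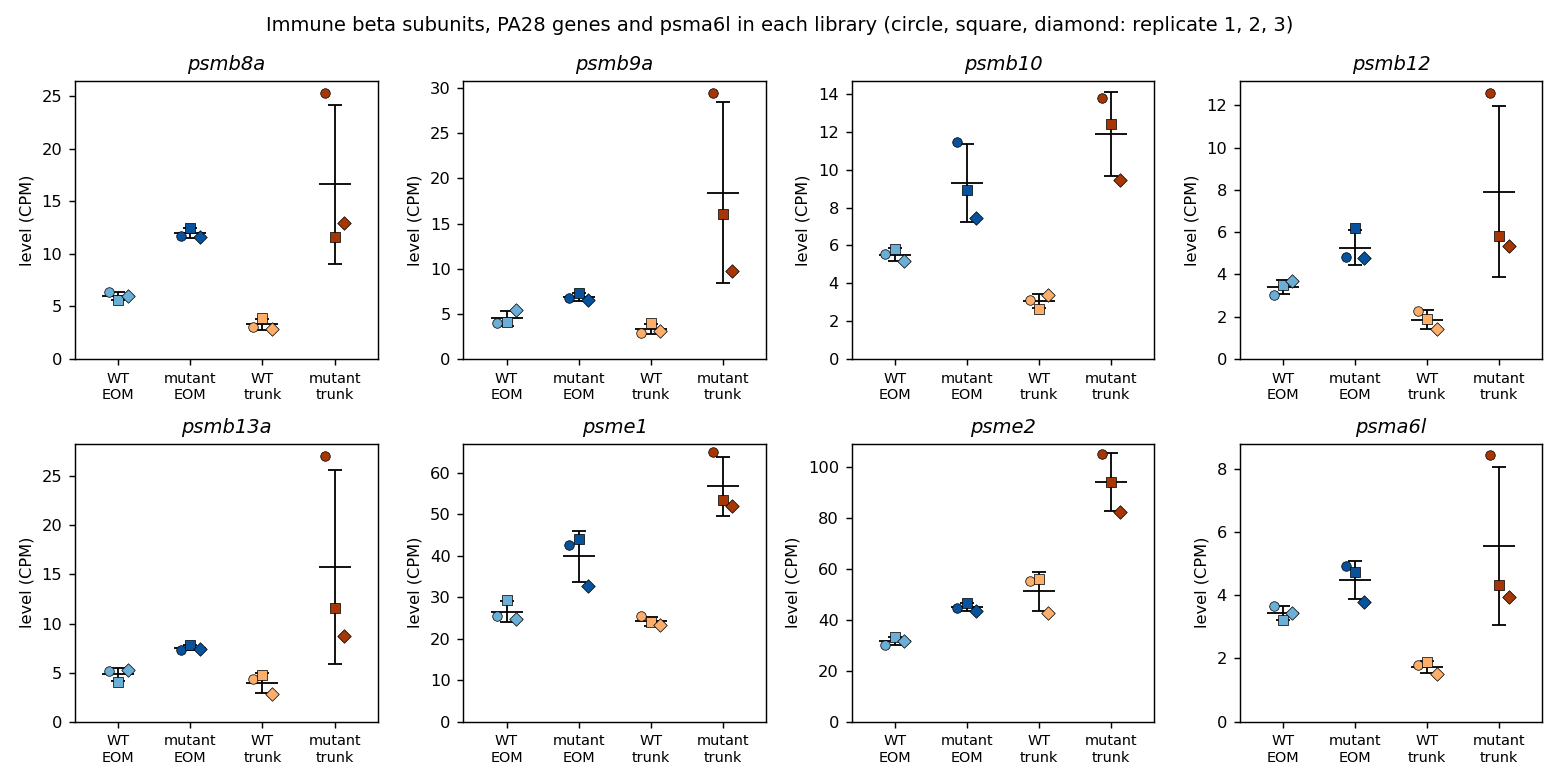
Levels (CPM, linear axes from 0) of the 5 immune beta genes, psme1, psme2 and psma6l in the 12 libraries, by group, with a point for each library and bars for the mean and SD of 3 libraries. In every panel the mutant libraries lie above the WT libraries of the same tissue, and mutant trunk replicate 1 (circle) is the highest of all, at 25.3 CPM for psmb8a and 29.4 CPM for psmb9a.

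One alpha ring gene behaved like the immune genes. The gene psma6l is a low-level relative of PSMA6. It stood at 1.80, 1.88 and 1.51 CPM in WT trunk and 8.45, 4.31 and 3.95 CPM in mutant trunk, and at 3.66, 3.23 and 3.45 CPM in WT EOM and 4.92, 4.74 and 3.79 CPM in mutant EOM. Mutant and WT libraries did not overlap in either tissue, and mutant trunk replicate 1 was again the highest. The log2 fold change was 1.71 ± 0.30 in trunk (edgeR adjusted p = 0.00943), passing without any 1 library and standing at 1.27 without mutant trunk replicate 1. In EOM it was 0.38 ± 0.16 (edgeR adjusted p = 0.247). Both IDs named PSMA6 changed by 0.12 and 0.15 in trunk and by -0.16 each in EOM, with edgeR adjusted p of at least 0.541.

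The counterparts were next compared within a library, which removes the scaling. These ratios of reads are not ratios of molecules, since gene lengths were not used. Per psmb5 read, psmb8a had 0.312, 0.556 and 0.198 reads in WT trunk and 1.72, 1.07 and 1.13 in mutant trunk. In EOM it had 1.01, 0.521 and 0.969 in WT and 1.45, 1.67 and 2.08 in mutants. The mutant ratios were higher without overlap in both tissues.

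Per psmb6 read, psmb9a had 0.0604 to 0.0875 reads in WT trunk and 0.230 to 0.462 in mutant trunk, with no overlap. In EOM the ranges were 0.0642 to 0.144 in WT and 0.140 to 0.220 in mutants, which overlapped. Per psmb7 read, psmb10 had 0.0262 to 0.0368 reads in WT trunk and 0.0882 to 0.122 in mutant trunk, and 0.0700 to 0.106 in WT EOM and 0.134 to 0.176 in mutant EOM, without overlap. Of the 6 ratio comparisons, 5 separated the genotypes. The immune genes in these ratios had already separated them by level in both tissues, so the ratios are not independent support. No share over other gene pairs was computed.

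Leukocyte markers rose with the immune genes. Of 15 matched markers, which include ptprc, lcp1, coro1a and cd74a, 8 of 14 tested were called higher in mutant EOM and 10 of 13 in mutant trunk, and none lower. Over all tested genes 2.15% and 4.76% were called higher. The marker cd79a, at low levels, had the lower means in mutants, 0.255 against 0.476 CPM in EOM and 0.033 against 0.088 CPM in trunk. The summed level of the 15 markers was 639 to 674 CPM in WT EOM and 919 to 1163 CPM in mutant EOM. In trunk it was 221 to 236 CPM in WT and 398 to 685 CPM in mutants. The neutrophil marker lyz lay between 0 and 0.038 CPM in all libraries, too low to compare the groups. More leukocytes and more immune proteasome RNA per cell cannot be told apart in bulk muscle, and likewise for every decrease below.

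Set against those markers, the tissues looked different. Per 100 reads of the leukocyte list, the 5 immune beta genes had 3.75, 3.43 and 3.99 reads in WT EOM and 3.72, 3.68 and 4.12 in mutant EOM. In trunk they had 6.71, 7.75 and 5.73 reads in WT and 15.8, 10.2 and 11.6 in mutants. The genotypes overlapped in EOM and did not in trunk. Without the abundant cd74a and cd74b, the ranges were 19.7 to 21.0 in WT EOM, 20.1 to 21.1 in mutant EOM, 22.4 to 27.6 in WT trunk and 41.9 to 78.2 in mutant trunk. This ratio was chosen after the levels had been seen, and its difference between tissues was not tested.

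Interferon response genes gave no common direction. Of 20 matched genes, 19 were tested in EOM and 18 in trunk, with a median log2 fold change of -0.03 in each. In mutant trunk irf1b, irf9 and tap2a were higher, by 1.54, 0.68 and 1.80 (edgeR adjusted p = 0.0315, 0.0276 and 0.0457). The class I heavy chain gene mhc1uba was lower in both tissues, by -1.57 in trunk (edgeR adjusted p = 0.0346) and -1.38 in EOM (edgeR adjusted p = 0.00621). With 1 library left out at a time, irf1b passed in trunk in 1 of 6 fits, tap2a and mhc1uba in 2 and irf9 in 3, with edgeR adjusted p up to 0.116, 0.154, 0.137 and 0.12. In trunk irf1b passed without mutant replicate 3 alone, and tap2a without mutant replicate 1, where its log2 fold change was 1.20, or 3. There irf9 was lost without WT replicate 1 or mutant replicate 1 or 2, and mhc1uba without WT replicate 1 or any 1 mutant library. The lists' part in the rise of the immune subunits was not tested.

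**Figure D2:**
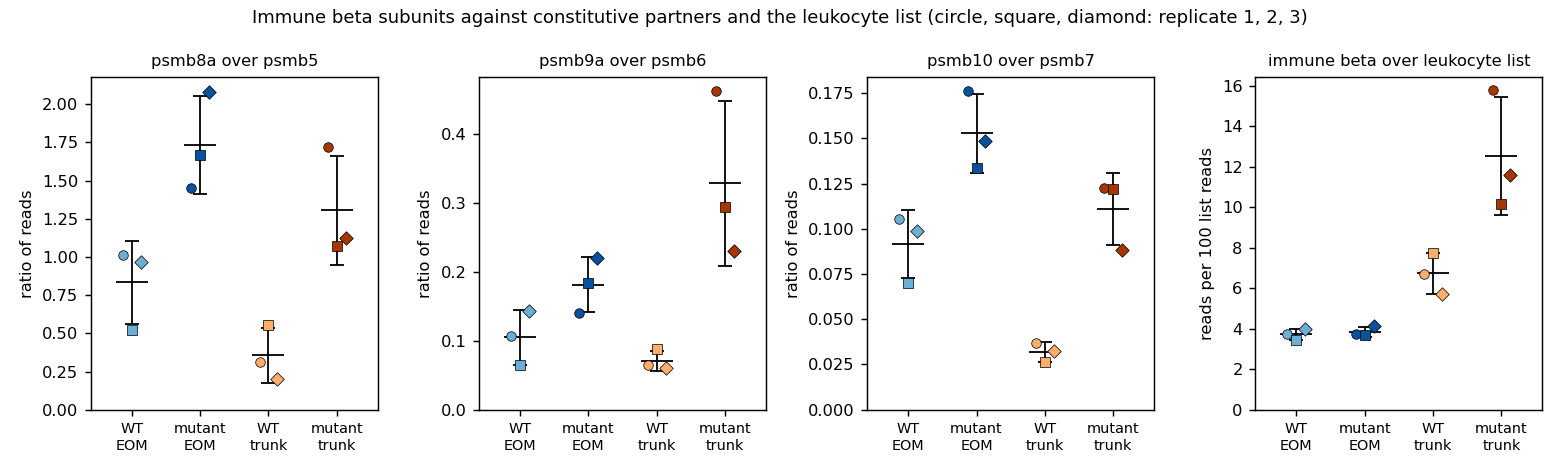
Ratios of reads within each library, by group, for psmb8a over psmb5, psmb9a over psmb6, psmb10 over psmb7 and the 5 immune beta genes per 100 reads of the leukocyte list, with linear axes from 0, a point for each library and bars for mean and SD of 3 libraries. Per leukocyte-list read the EOM groups coincide, at 3.43 to 4.12 reads per 100, whereas mutant trunk lies at 10.2 to 15.8 and WT trunk at 5.73 to 7.75.

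The 37 constitutive subunits, which leave out psma6l, showed small shifts. In EOM, 0 of the 37 constitutive subunits passed (0 also at an unadjusted p of 0.05, and 0 in DESeq2), 12 had a positive and 25 a negative log2 fold change, and the values ran from -0.35 for psmd3 to 0.24 for psmd8. By class the medians were -0.10 in the alpha ring (all 10 genes, psma6l included), -0.04 in the beta ring, -0.07 in the ATPases and -0.08 in the non-ATPases. Their summed level was 1469, 2186 and 1434 CPM in WT EOM and 1761, 1758 and 1389 CPM in mutant EOM, so that WT replicate 2 was above every mutant library and the other WT libraries lay among them. Without WT EOM replicate 2 these medians became 0.20, 0.21, 0.13 and 0.06, again with no constitutive subunit called. The sign of the EOM shift was not stable. Over the 37 subunits the median was -0.07 in the main fit and 0.14 without WT EOM replicate 2. It was also positive without mutant EOM replicate 3 (0.03) and with unscaled library totals (0.04, beside 0.08 over all genes).

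In trunk 34 of the 37 had a positive log2 fold change, with a median of 0.19 and a range of -0.10 to 0.58. The sums were 1896, 2166 and 2267 CPM in WT trunk and 2624, 2200 and 2277 CPM in mutant trunk, which overlapped, with mutant replicate 1 highest. Only psmb2 passed. It encodes a non-catalytic beta subunit and stood at 45.2, 50 and 48.8 CPM in WT trunk and 84.5, 65.7 and 61.4 CPM in mutant trunk, without overlap. Its log2 fold change was 0.58 ± 0.15 (edgeR adjusted p = 0.0417). The call was lost without WT trunk replicate 1 (edgeR adjusted p = 0.146) or 2 (0.0733), and without mutant trunk replicate 1 (0.182) or 2 (0.096). In EOM psmb2 held 49.6, 64.3 and 41.3 CPM in WT and 62.4, 61.9 and 44.9 CPM in mutants, overlapping (0.13 ± 0.19, edgeR adjusted p = 0.777).

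By class, the trunk medians were 0.16 in the 10 alpha ring genes, 0.21 in the beta ring, 0.24 in the ATPases and 0.14 in the non-ATPases. All 7 ATPases, the motor that threads substrates into the core, were positive, from 0.13 for psmc6 to 0.43 for psmc1b (edgeR adjusted p = 0.0861). Among the non-ATPases psmd12, a scaffold of the lid, was highest at 0.44 (edgeR adjusted p = 0.156). The deubiquitinase psmd14, which releases ubiquitin chains, changed by 0.26 (edgeR adjusted p = 0.267). The ubiquitin receptor genes PSMD4 and psmd4b changed by 0.22 and 0.14 (edgeR adjusted p = 0.441 and 0.626). Without mutant trunk replicate 1 the median of all members fell from 0.22 to 0.13, and without WT trunk replicate 3 it was 0.30 with psmc1a, psmc3, psmc4, psmd7 and psmd12 among 12 members called. Over the 37 constitutive subunits alone the median of 0.19 fell to 0.09 without mutant trunk replicate 1, with 6 negative. It was 0.12 without WT trunk replicate 1 and 0.26 without WT trunk replicate 3.

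**Figure D3:**
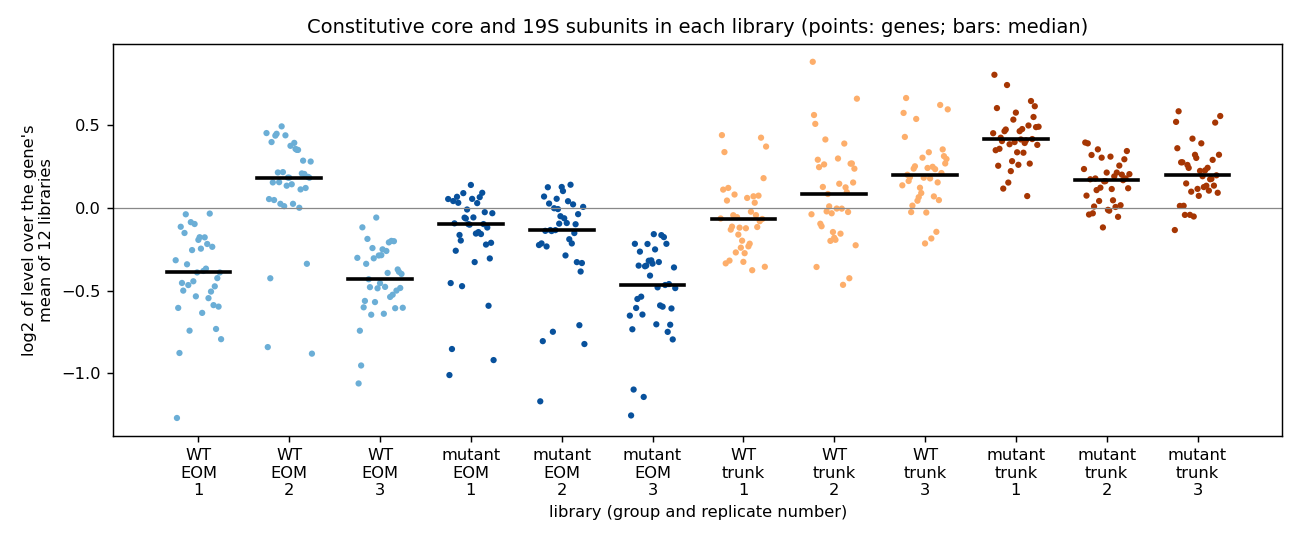
Levels of the 37 constitutive subunit genes in each library, as log2 of the level over that gene's mean in the 12 libraries, with a point for each gene and a bar for the median. WT EOM replicate 2 has a median of 0.18 while the other WT EOM libraries have -0.39 and -0.43, and mutant trunk replicate 1 has the highest median, 0.41.

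The assembly chaperones psmd5, psmd9 and psmd10, which help build the base of the regulatory particle and leave before it works, were all positive in trunk, at 0.49, 0.58 and 0.34, without overlap. Of these psmd9 passed. It stood at 6.22, 6.80 and 7.94 CPM in WT trunk and 11.4, 9.52 and 10.0 CPM in mutant trunk (0.58 ± 0.16, edgeR adjusted p = 0.0463). It passed in 1 of the 6 fits without 1 library, the one without WT trunk replicate 3 (edgeR adjusted p = 0.0145). In the others edgeR adjusted p was 0.17 without WT trunk replicate 1, 0.107 without 2, and 0.182, 0.101 and 0.0888 without mutant trunk replicate 1, 2 and 3. In EOM the psmd9 libraries overlapped, at 11.1, 15.2 and 11.1 CPM in WT and 12.8, 14.4 and 9.97 CPM in mutants (-0.01 ± 0.18, edgeR adjusted p = 0.988).

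The activators outside the PA28 pair had negative values in trunk, none passing. The 2 PSME4 IDs, named for the PA200 activator, changed by -0.35 ± 0.14 (ENSDARG00000018742, edgeR adjusted p = 0.153) and -0.31 ± 0.18 (ENSDARG00000087911, edgeR adjusted p = 0.32). The first stood at 67.7, 67.5 and 77.9 CPM in WT trunk and 51.3, 51.8 and 62.4 CPM in mutant trunk, the only member whose mutant trunk libraries lay below all WT ones, beside 15.2% of all genes. The nuclear activator psme3 changed by -0.18 (edgeR adjusted p = 0.567). In EOM these 3 ranged from -0.19 to -0.01.

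The partner genes differed. psme3ip1 was 17.4, 20.3 and 16.6 CPM in WT trunk and 23.9, 23.7 and 22.2 CPM in mutant trunk, without overlap (0.38 ± 0.12, edgeR adjusted p = 0.0826). psmc3ip, known for meiotic recombination, was tested in EOM alone, at 0.592, 0.508 and 0.477 CPM in WT and 0.249, 0.408 and 0.263 CPM in mutants (-0.77 ± 0.34, edgeR adjusted p = 0.274). It was the only member lower without overlap in mutant EOM, beside 11.6% of all genes.

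**Figure D4:**
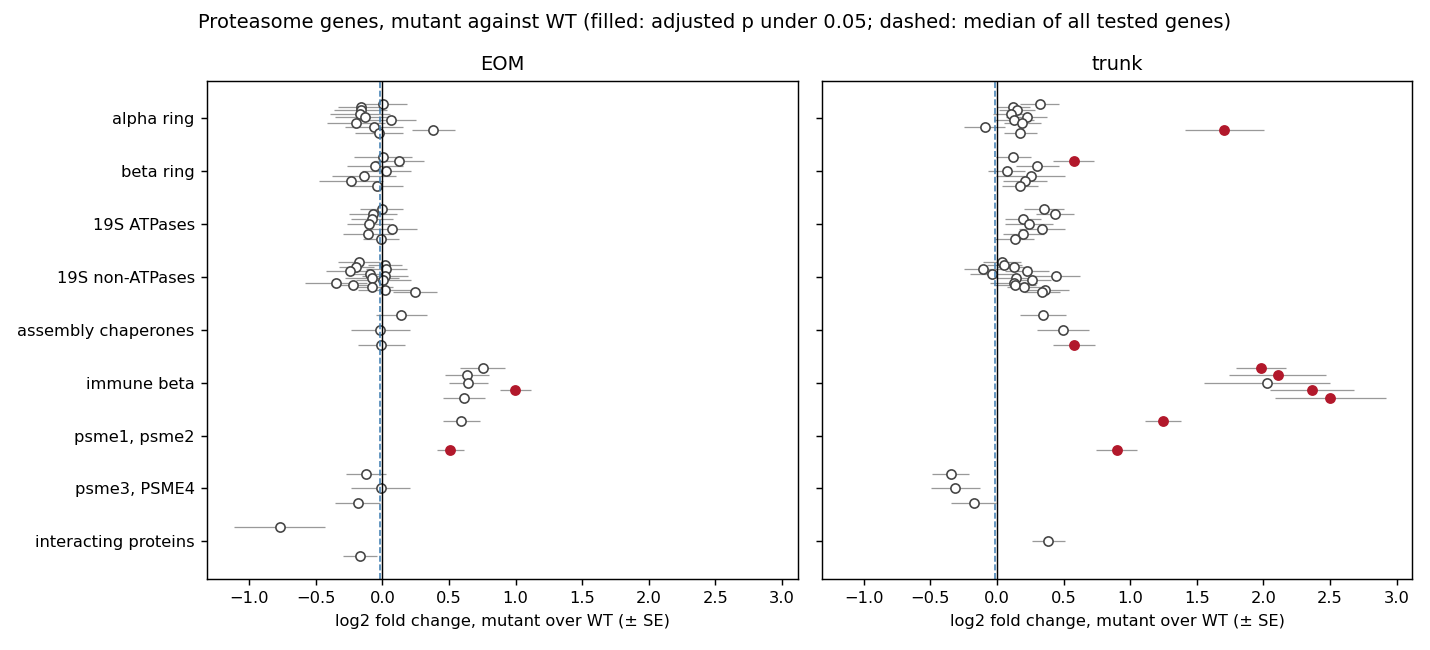
Log2 fold change of each tested member, mutant over WT, with its SE, by class, in EOM (53 members) and trunk (52 members); filled points passed an adjusted p of 0.05 and the dashed line is the median of all tested genes. In trunk the immune beta genes lie from 1.98 to 2.50 and the 37 constitutive subunits without psma6l (1.71) between -0.10 and 0.58, while in EOM the immune beta genes lie from 0.61 to 1.00.

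The difference between the tissues in the mutant effect was tested in 1 fit of all 12 libraries. No member passed (0 of 53), beside 0.0914% of 19687 genes (higher 0.0305%, lower 0.061%). At an unadjusted p of 0.05 in edgeR there were 9 of 53 members, beside 1930 of the 19687 genes. DESeq2 called 3 members, psmb8a, psmb9a and psmb10 (DESeq2 adjusted p = 0.0347, 0.00731 and 0.00887). The DESeq2 count over all genes is given in the last section. The log2 differences, EOM minus trunk, were -1.34 ± 0.34 for psmb8a, -1.87 ± 0.43 for psmb9a, -1.21 ± 0.26 for psmb10, -1.45 ± 0.41 for psmb12 and -1.35 ± 0.48 for psmb13a (edgeR adjusted p = 0.217, 0.173, 0.121, 0.276 and 0.401). They were smaller for psme1, -0.64 ± 0.20, and psme2, -0.37 ± 0.19 (edgeR adjusted p = 0.326 and 0.542). The larger rise in trunk was thus not called in this fit. Without mutant trunk replicate 3, psmb9a passed at -2.17 (edgeR adjusted p = 0.0238).

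Over all members 48 of 53 differences were negative, with a median of -0.31 beside -0.01 over all genes. Without WT EOM replicate 2 this median was -0.07. The 37 constitutive subunits alone had a median of -0.27 (35 negative, none called), which became -0.05 (23 negative) without that library. The class median of the immune beta genes was -1.35 with that library and -1.44 without it.

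Between the tissues of WT fish, 18 of 53 members passed, 7 higher and 11 lower in EOM than in trunk. Their share of 34% was below the 48.8% of all 18430 genes called (higher 25.6%, lower 23.2%). The higher ones were psma6l, psmb8a, psmb10, psmb12, psmd5, psmd9 and psmc3ip. The lower ones were mainly constitutive subunits: psmd1, psmd3, 1 PSMD11 ID, both PSMD2 IDs, psma5, psmb4 and psmb7, with psme2, psme3 and 1 PSME4 ID. Without WT EOM replicate 2 the count was 24, 5 higher and 19 lower. It was 11 without WT EOM replicate 1 (6 higher, 5 lower) or WT trunk replicate 2 (5 higher, 6 lower). The tissues did not overlap in 22 of the 53 members, 8 higher and 14 lower in EOM, beside 60.1% of all genes (higher 31%, lower 29.1%).

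The member with the largest fold change in both genotypes was a non-ATPase of the regulatory particle. psmd1, which like PSMD2 encodes a large base subunit, stood at 26, 35 and 30.1 CPM in WT EOM and 85.1, 115.8 and 93.4 CPM in WT trunk. Mutants showed the same, with 31.1, 27.9 and 26.3 CPM in EOM and 109.6, 82.5 and 90.0 CPM in trunk. The tissues did not overlap, and psmd1 was 3.15-fold lower in WT EOM and 3.28-fold lower in mutant EOM. The log2 fold change was -1.65 ± 0.17 in WT (edgeR adjusted p = 0.000114) and -1.72 ± 0.13 in mutants (edgeR adjusted p = 1.5e-06).

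The ID ENSDARG00000103190, named PSMD2, held 9.14, 8.60 and 10.4 CPM in WT EOM and 20.5, 25.1 and 24.0 CPM in WT trunk (-1.27 ± 0.15, edgeR adjusted p = 0.000198). In mutants it held 8.38, 8.96 and 11.3 CPM in EOM and 22.3, 18.3 and 23.3 CPM in trunk (-1.14 ± 0.15, edgeR adjusted p = 6.86e-05). No EOM library reached a trunk library in either genotype. The second PSMD2 ID, ENSDARG00000099653, changed by -0.79 in WT (edgeR adjusted p = 0.00254) and -1.11 in mutants (edgeR adjusted p = 1.2e-05).

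Of the 2 PSMD11 IDs, named for a lid scaffold subunit, only ENSDARG00000005134 passed. It held 26.3, 36.0 and 24.9 CPM in WT EOM and 61.0, 68.7 and 76.5 CPM in WT trunk (-1.21 ± 0.18, edgeR adjusted p = 0.000777). In mutants it held 26.7, 27.6 and 22.6 CPM in EOM and 73.4, 63.3 and 72.4 CPM in trunk (-1.43 ± 0.12, edgeR adjusted p = 2.3e-06). EOM and trunk did not overlap. The other ID, ENSDARG00000060150, lay between 11 and 13.8 CPM in all 12 libraries, with differences of 0.00 ± 0.15 in WT and -0.05 ± 0.12 in mutants (edgeR adjusted p = 0.982 and 0.751). psmd1 and these PSMD2 and PSMD11 IDs passed without any 1 library in both genotypes.

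Among the members higher in WT EOM, psmc3ip had the largest fold change, 1.36 ± 0.42 (edgeR adjusted p = 0.026), at 0.592, 0.508 and 0.477 CPM in EOM and 0.248, 0.126 and 0.251 CPM in trunk. These were few reads, and the call was lost without WT EOM replicate 1 (edgeR adjusted p = 0.0936) or 2 (0.0539) and without WT trunk replicate 1 (0.0577) or 2 (0.0893). psma6l was next at 1.03 ± 0.20 (edgeR adjusted p = 0.00296), then psmb8a at 0.91 ± 0.18 (edgeR adjusted p = 0.00336), psmb12 at 0.90 ± 0.23 (edgeR adjusted p = 0.0111) and psmb10 at 0.89 ± 0.18 (edgeR adjusted p = 0.00401). EOM lay above trunk without overlap for these 5. The chaperone genes psmd9 and psmd5 were higher by 0.87 and 0.81 (edgeR adjusted p = 0.00479 and 0.0175). Leukocyte markers were also higher in WT EOM, 9 of 14 passing, beside 25.6% of all genes called higher. Between mutant tissues all 14 markers tested were higher in EOM, 9 passing, beside 27.4% of all genes called higher. The immune beta genes had negative values in that comparison with TMM. The part of these markers in the immune subunit levels was not tested.

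In mutants the same tissue comparison was made. Of 53 members 30 passed, all lower in EOM, which is 56.6% beside 53.1% of all 18698 genes (higher 27.4%, lower 25.7%). Without overlap there were 2 higher, psmd10 and psmc3ip, and 33 lower, beside 61.5% of all genes (higher 31.7%, lower 29.8%). All 11 members lower in WT EOM were among them. The 37 constitutive subunits were all negative, 24 of them passing, with a median of -0.47. In WT 8 passed, 26 were negative and the median was -0.21. Without mutant EOM replicate 3 the mutant values were 21 passing, all lower, 35 negative and a median of -0.36. With unscaled library totals the mutant values were 15 passing higher, 4 passing lower, 8 negative and a median of 0.27. For WT the unscaled values were 15 passing higher, 3 passing lower, 7 negative and a median of 0.37. Without WT EOM replicate 2 the WT values were 16 passing, all lower, 32 negative and a median of -0.44. In WT 4 passed without WT EOM replicate 1, WT EOM replicate 3 or WT trunk replicate 2, and 5 without WT trunk replicate 3. With TMM the 5 immune beta genes all had positive values in WT, 3 passing, and negative ones in mutants. Their class median was 0.89 in WT and -0.58 in mutants. With unscaled library totals the median of all genes moved by 0.75 in mutants, more than the size of this class median. The negative direction of the class in mutants thus depended on the scaling. One passed in mutants, psmb9a at -1.42 ± 0.38 (edgeR adjusted p = 0.0177). These comparisons share libraries with those of mutant against WT. The test of whether the tissue difference changed with genotype is the difference given above, which called no member and no constitutive subunit, the latter also at an unadjusted p of 0.05.

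**Figure D5:**
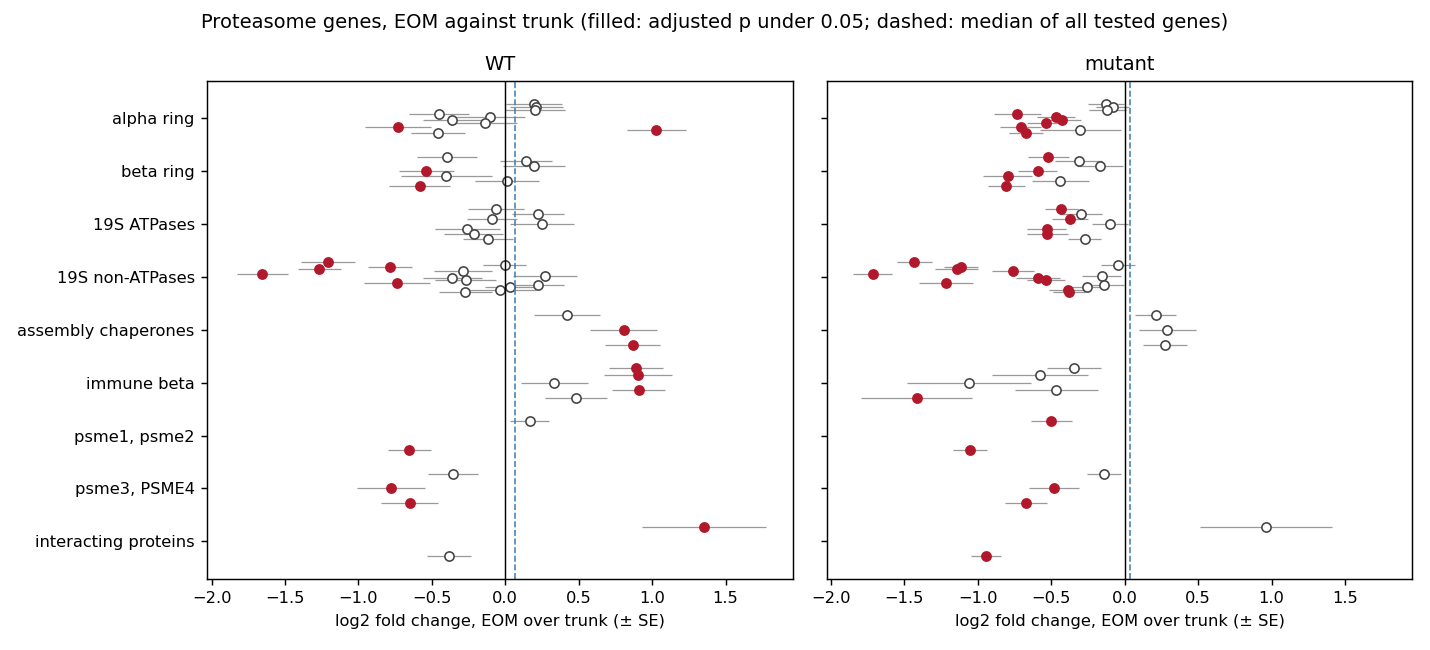
Log2 fold change of each tested member, EOM over trunk, with its SE, by class, in WT and in mutants; filled points passed an adjusted p of 0.05 and the dashed line is the median of all tested genes. With the TMM scaling shown, psmd1 is the lowest point in both panels, at -1.65 and -1.72. The immune beta genes lie to the right of zero in WT (0.33 to 0.91) and to the left in mutants (-1.42 to -0.34). Their side in mutants depended on the scaling.

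The tissue comparisons depended on the scaling. With unscaled library totals the median of all genes moved by 0.60 in WT and 0.75 in mutants on the log2 scale. The called members then split 26 higher and 3 lower in WT EOM and 20 higher and 5 lower in mutant EOM, in place of 7 and 11, and 0 and 30. Relative to the median of all genes, the members' median was -0.17 in WT with TMM and -0.20 unscaled, and -0.51 in mutants with either. By that measure 33 of 53 members lay below the median gene in WT and 49 of 53 in mutants under both scalings. A change of scaling moves nearly every gene by the same amount, which this measure subtracts. The agreement between scalings was thus built in and is no separate support. psmd1, PSMD2 (ENSDARG00000103190) and PSMD11 (ENSDARG00000005134) were the 3 still called lower in WT EOM with unscaled totals. The log2 fold change of psmd1 was then -1.06 in WT and -0.98 in mutants. In mutants psmd1 and that PSMD11 ID stayed called. That PSMD2 ID did not, at -0.40 (edgeR adjusted p = 0.072).

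Genes that build or control the proteasome, but lie outside the naming rule, were taken from a list of 37 symbols. This list matched 34 IDs, all tested. The symbol ubb matched 2 IDs, and psmg4, ufd1l, ubqln1 and zfand2a matched none. In mutant EOM 0 of the 34 were called higher and 1 lower, beside 2.15% and 1.4% of all genes, with a median of -0.09. In mutant trunk 2 of the 34 were called higher and 3 lower, beside 4.76% and 3.63% of all genes, with a median of -0.01. The list thus did not share the positive median of the subunits in trunk.

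In trunk the proteasome inhibitor gene psmf1 (PI31) stood at 14.2, 13.9 and 14.5 CPM in WT and 24.1, 19.9 and 20.0 CPM in mutants (0.61 ± 0.13, edgeR adjusted p = 0.021). The polyubiquitin gene ubc held 82.6, 69.8 and 74.0 CPM in WT and 110.4, 102.6 and 108.8 CPM in mutants (0.53 ± 0.13, edgeR adjusted p = 0.034). Neither overlapped. The call of psmf1 was lost without WT trunk replicate 1 or 2 or mutant replicate 1 or 2 (edgeR adjusted p = 0.0798, 0.0505, 0.105 and 0.061), and that of ubc without 5 of the 6 libraries (edgeR adjusted p up to 0.141), WT trunk replicate 3 being the exception.

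The adaptor ecpas, which binds and remodels proteasomes, was lower, at 21.7, 24.7 and 20.4 CPM in WT trunk and 13.9, 11.7 and 16.2 CPM in mutant trunk (-0.66 ± 0.15, edgeR adjusted p = 0.023). fbxo7, an F-box protein that binds PI31, was 22.8, 24.5 and 19 CPM in WT trunk and 12.6, 14.8 and 15.8 CPM in mutant trunk (-0.60 ± 0.14, edgeR adjusted p = 0.0263). Both were lost without WT trunk replicate 1 or 2 or mutant replicate 1 or 2 (edgeR adjusted p from 0.0572 to 0.107 for ecpas and from 0.0648 to 0.127 for fbxo7). A polyubiquitin ID named UBB (ENSDARG00000002369) was lower in both tissues.

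UBB stood at 93.8, 88.9 and 66.2 CPM in WT trunk and 50.7, 37.5 and 43.7 CPM in mutant trunk (-0.89 ± 0.17, edgeR adjusted p = 0.0108), the call being lost without mutant trunk replicate 2 (0.0637). In EOM it stood at 104.5, 90.7 and 67.1 CPM in WT and 32.1, 47.8 and 30.0 CPM in mutants (-1.25, edgeR adjusted p = 0.0237). That call was lost without WT EOM replicate 1 or 2 or mutant EOM replicate 1 or 3 (edgeR adjusted p = 0.0848, 0.0504, 0.116 and 0.0744). The mutant libraries of UBB lay below the WT libraries in both tissues. The other ID of this symbol, ubb (ENSDARG00000093313), passed in neither tissue. It stood at 309, 315 and 209 CPM in WT trunk and 195, 172 and 197 CPM in mutant trunk, without overlap. In EOM it held 206, 205 and 137 CPM in WT and 90.2, 143 and 72.1 CPM in mutants, which overlapped.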

How the data were processed

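The authors deposited 1 table of raw read counts per library, in the layout of STAR's per-gene output. Per the submitters' processing notes, STAR and DESeq2 were used with the genome build GRCz11; versions and annotation are not given in the sources used here. Per the labels, libraries were made from poly-A RNA with a stranded kit. Each table holds 4 tallies and 32520 IDs, with counts for either strand and for each strand. The sense count was used, since the other strand held 2.77% to 3.21% of stranded gene reads. The tallies, kept out of library sizes and tests, were 7.93% to 14.3% (unmapped), 9.96% to 11.4% (several places), 5.93% to 9.57% (no gene) and 1.34% to 1.59% (ambiguous) of all reads. Multi-mapped reads were thus not counted, which can lower near-identical paralogs.

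Symbols came from a table that named 29201 IDs. Of the members tested, mean reads per library ranged from 19.2 to 6514. The psmb8a, psmb9a, psmb10, psmb12 and psmb13a genes had 56 to 1356 reads in a library. Intervals and errors cover these libraries only, and reads carry no molecular identifiers.

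The quasi-likelihood F test of edgeR 4.0.16 (R 4.3.3) was applied to these counts (TMM factors 0.71 to 1.38, filterByExpr, robust dispersions), fitted over all genes of the groups compared. P-values were adjusted by Benjamini-Hochberg over all genes tested, with a threshold of 0.05. SE is the log2 fold change divided by the square root of F. The code was tested on simulated data, in which the share of false calls lay above the nominal threshold in every comparison, so an adjusted p just under 0.05 carries more doubt than its value states. Named genes were members called in a mutant comparison, all immune beta and PA28 genes, and for EOM against trunk the 3 largest changes each way in WT; other members appear by class or as examples chosen after their values were seen. Members, classes and lists were chosen with earlier results of these data known. Alternatives were DESeq2 1.42.0, other scalings, no filter, a mean of at least 50 reads, the count of either strand, 1 fit of all 12 libraries, replicate number as a block, and each library left out. Replicate numbers were not used as pairs in the main fits. Correlations of deviations over 14314 genes between same-numbered libraries ranged from -0.37 to 0.51. With 3 libraries per group, these values cannot tell whether such libraries share fish.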

Additional observations from a re-analysis of the deposited data

How the results depend on the processing

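The number of members called in mutant EOM was 2, but 7 with DESeq2, 4 with unscaled library totals, 5 with no filter, 4 in 1 fit of all 12 libraries and 6 with the replicate number as a block. The 7 were the immune beta and PA28 genes that could be tested. Over all genes the EOM count of 675 became 1486 with DESeq2 and 1191 with the block. For the difference between tissues, members went from 0 to 3 with DESeq2, and all genes from 18 to 194 with DESeq2, 35 with no filter, 11 at a mean of at least 50 reads and 6 with the block. Members called between WT tissues went from 18 to 29 with unscaled totals. With the block the members called were 8 in trunk, 0 for the difference, 14 between WT tissues and 33 between mutant tissues. The cause of these changes was not tested.

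Leaving out 1 library at a time gave 1 to 3 members (all genes 127 to 648) in EOM, 5 to 12 (488 to 2043) in trunk, 0 to 1 (5 to 19) for the difference, 11 to 24 (6896 to 8712) between WT tissues and 26 to 32 (8333 to 10185) between mutant tissues. The count in EOM was 1 without WT replicate 1 or mutant replicate 1, 2 or 3, and that in trunk was 5 without WT replicate 2. Genes given with full values were followed by name through every fit within each tissue. Between tissues only the 3 largest changes each way in WT were followed. Among these, signs turned in EOM for psmd9 (0.10 unscaled, -0.13 to 0.16 with 1 library left out) and psmb2 (-0.014 to 0.31 with 1 left out). Between mutant tissues they turned for psma6l (0.44 unscaled, -0.51 to 0.13 with 1 left out) and psmb8a (0.27 unscaled). These were uncalled in those comparisons. Other genes turned too, such as psmb2 between mutant tissues (-0.31 in the main fit, 0.43 unscaled). Over all members tested, unscaled totals turned the sign of 21 between WT tissues, 1 of them called, and of 37 between mutant tissues, 19 of them called, against 16 in EOM, 1 in trunk and 7 for the difference, none of them called.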
